A study of Mus musculus with 8 samples.

Results

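Loss of the glucocorticoid receptor (GR) from astrocytes was examined in mice reared in the dark. The comparison takes the 4 dark-reared (DR) libraries of a single-nucleus RNA-seq series of 8 libraries from the primary visual cortex (V1), chosen by the rearing condition given for each nucleus, and sets the 2 GR-KO libraries against the 2 GR-Con libraries. These 4 libraries held 54232 of 102330 nuclei. All animals were GRfl/fl, that is, both copies of the GR gene Nr3c1 were flanked by loxP sites, and all were 21 days old. All had been injected at birth with an AAV2/5 vector driven by the astrocyte promoter GfaABC1D: GR-KO animals received a vector encoding Cre, and GR-Con animals one encoding the truncated, inactive ΔCre, each linked to membrane-targeted EGFP. DR animals were kept in darkness until collection, whereas the other 4 libraries of the series came from normally reared (NR) animals. Each group held 1 male and 1 female library, and each library is referred to by its group and the sex of the animal. The GR-Con animals carried the floxed alleles and a vector as well, so that the groups differed in active Cre.

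GR is a steroid hormone receptor that, once bound by corticosterone, enters the nucleus and binds DNA elements built from pairs of the hexamer AGAACA or from single copies of it. In astrocytes it is known to drive genes of metabolism, stress feedback and the clock, and glucocorticoid levels follow both the daily cycle and arousal. Astrocytes in turn clear transmitters, supply lipids and metabolites, shape the extracellular matrix and release factors that act on synapses of the surrounding neurons.

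UMI counts were summed over the nuclei of each deposited cell type in each library, so that the library was the unit of replication, and levels are given as CPM (the UMI count of a gene scaled to the summed UMIs of that cell type in that library, the usual unit of sequencing depth). The 4 libraries held 11406 to 15161 nuclei and 168632129 to 288774016 UMIs, with fewer UMIs in both GR-KO libraries than in either GR-Con library. Of 20 cell types, 15 had at least 10 nuclei in every DR library and were tested. The DR GR-Con female library stood apart: it held 4 microglia, 5 endothelial nuclei, 3 vascular leptomeningeal nuclei and 1 mural nucleus, against 885 microglia in the DR GR-Con male library. Microglia were as scarce in the male NR libraries (2 in GR-Con and 4 in GR-KO), which enter only the comparison with NR, but their endothelial and leptomeningeal nuclei were not (20 to 37 of each). It also had the highest level of Rnf213, an interferon-induced E3 ligase, in 15 of the 15 tested types and of Ddx58, the cytosolic RNA sensor RIG-I, in 13. In astrocytes Rnf213 was at 50.9 and 150 CPM in the male and female GR-Con libraries and at 35.5 and 42.0 CPM in the GR-KO libraries. These genes were picked after their values were seen. The astrocyte label was checked against 5 markers (Aqp4, Slc1a3, Gja1, Aldh1l1, Slc1a2), of which 5 had their highest level in astrocytes. Of 65 markers found over all types, 50 were highest in their own type, but none of the 3 markers of L6IT neurons (Osr1, Sulf1, Oprk1) and neither of the 2 of L5PT neurons (Bcl6, Pou3f1) was, so that these 2 types rest on the deposited labels.

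The vector was read from the Cre and ΔCre features of the deposited counts. No nucleus of the GR-Con libraries held a Cre UMI: 0 of 1794 and 0 of 993 astrocytes, which allows shares of up to 0.167% and 0.302%. In GR-KO astrocytes 53 of 1099 nuclei (4.82%, 95% Wilson interval 3.71 to 6.25) and 42 of 1359 nuclei (3.09%, 2.29 to 4.15) held one. Cre UMIs were also present in excitatory neuron nuclei of GR-KO animals, in 102 of 7257 (1.41%, 1.16 to 1.70) and 187 of 9059 (2.06%, 1.79 to 2.38). In inhibitory neuron nuclei they were found in 18 of 1132 (1.59%, 1.01 to 2.50) and 34 of 1249 (2.72%, 1.95 to 3.78). Among excitatory types Cre was called higher in L2/3 and L4 neurons (log2 fold changes 8.98 to 9.38), though not by DESeq2. Oligodendrocytes and their precursors, where GfaABC1D is not known to be active, held Cre in 2 of 1054 and 0 of 1101 nuclei. In astrocytes the ΔCre feature did not separate the groups. It was found in 22 of 1794 (1.23%) and 29 of 993 (2.92%) GR-Con astrocytes and in 34 of 1099 (3.09%) and 26 of 1359 (1.91%) GR-KO astrocytes. In excitatory neurons it was found in 0.140% and 0.352% of GR-Con and in 1.23% and 1.21% of GR-KO nuclei. It was called higher in GR-KO in L2/3 and L4 neurons (log2 fold change 2.60 and 2.40). Whether reads of the Cre vector were counted to this feature was not tested. Median depth over all nuclei of the GR-KO libraries was 14928.5 and 14861 UMIs against 4889 and 5227 UMIs in astrocytes, and intervals cover counting error only. The EGFP feature was found in 4.63% and 11.98% of GR-Con and 9.19% and 5.37% of GR-KO astrocytes. Nuclei were sorted by the DNA dye DRAQ5 according to the labels and as DRAQ5 positive and GFP negative according to the study's methods, so these shares cannot be read as infection rates. Nr3c1 itself was at 263 and 207 CPM in GR-Con astrocytes and at 274 and 275 CPM in GR-KO astrocytes (log2 fold change 0.24, SE 0.22). Whether the counted reads cover the floxed part was not checked, so this level cannot show whether that part was lost.

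Genes were tested within each type with the edgeR likelihood ratio test and called at a Benjamini-Hochberg adjusted p under 0.05. The calls were spread over neurons and astrocytes. In astrocytes 33 genes were higher and 71 lower in GR-KO, which is 0.736% of the genes tested. Among excitatory types, L4 neurons had 135 higher and 67 lower genes (1.17%), L5IT neurons 87 and 62 (1.05%), L6CT neurons 90 and 39 (0.809%), and L2/3 neurons 62 and 41 (0.573%). L6IT neurons had 40 and 26 (0.437%), L5PT neurons 43 and 17 (0.411%), L6b neurons 19 and 9 (0.239%), and L5NP neurons 6 and 2 (0.0674%). Among inhibitory types, Sst neurons had 49 higher and 17 lower genes (0.481%), Pvalb neurons 25 and 36 (0.423%), Lamp5 neurons 26 and 7 (0.301%), and Vip neurons 17 and 2 (0.148%). Oligodendrocyte precursors (OPC) had 33 and 9 (0.371%), and in oligodendrocytes the long noncoding RNA Gm32122 was the single call (0.00782%). Types differed in depth, with 29027273 to 60804676 summed UMIs per DR library in L4 neurons against 2535604 to 5401455 in L5NP neurons. The part of depth in the numbers of calls was not tested. Lower genes outnumbered higher ones in astrocytes and Pvalb neurons, and higher genes did so in the other 13 types. This balance was not stable to leaving out a library: astrocytes had 1316 higher and 1189 lower genes without the DR GR-Con male and 6 and 1 without the DR GR-KO male library, and the excitatory types together, with 482 higher and 263 lower calls, had more lower than higher calls without the DR GR-Con male (1235 and 1509), the DR GR-Con female (1485 and 1630) or the DR GR-KO male library (139 and 175).

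**Figure D1:**
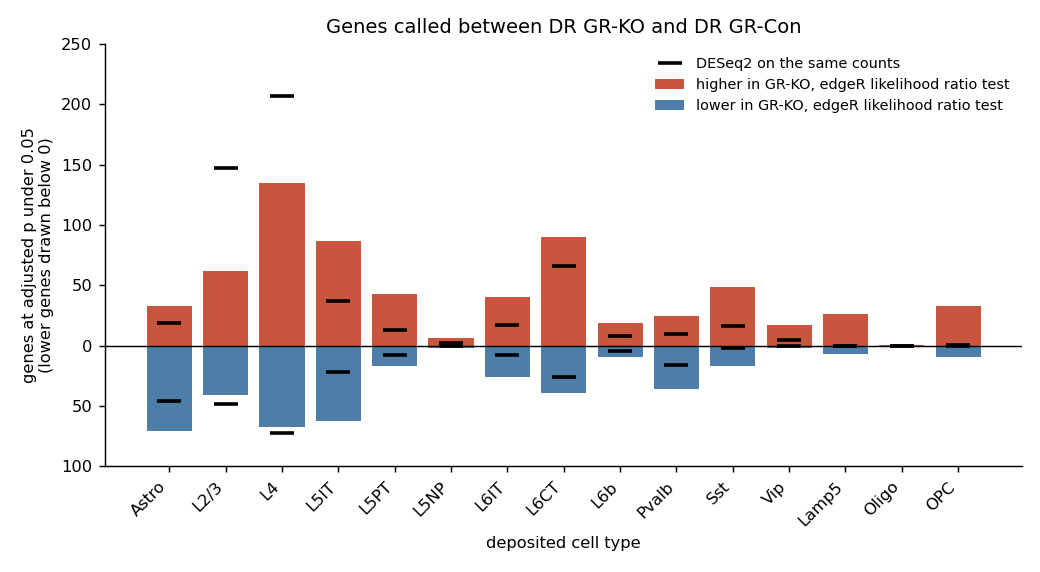
Number of genes called per deposited cell type (bars, edgeR likelihood ratio test; higher in DR GR-KO above 0, lower below 0) with the numbers called by DESeq2 on the same counts (black marks). L4 neurons had the most calls (135 higher, 67 lower), and astrocytes had more lower (71) than higher (33) genes. Summed UMIs differed between types, and their part in these numbers was not tested.

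These counts depended on the test. DESeq2 called 65 genes in astrocytes, 62 of them among the 104, and 685 gene-by-type pairs in excitatory neurons, 438 of them among 745. The more cautious edgeR quasi-likelihood F-test called 0 genes in astrocytes and 0 in excitatory types, where 874 and 9434 tests had an unadjusted p under 0.05, and 8 in inhibitory types. Without the DR GR-Con female library 736 astrocyte genes were called, including 103 of the 104, whereas without the DR GR-KO male or female library 7 and 6 were called. With 2 libraries a group, a single library could therefore decide the number of calls. Each omission leaves 1 library in a group, which is then assumed to vary like the 2 libraries of the other group, so that a call kept under omission is only a limited check.

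Of the astrocyte genes with the largest fold changes, Hif3a, Phyhd1 and Etnppl were among those that fell and Them4, Vcan and Slco1c1 among those that rose. Values are given by library in the order DR GR-Con male and female, then DR GR-KO male and female. Hif3a (chr7:17031507-17062427), a member of the hypoxia-inducible factor family and a known GR target, was at 239 and 229 CPM and fell to 70.5 and 71.5 CPM, a log2 fold change of -1.70 (SE 0.19, adjusted p = 4.16e-15). Phyhd1 (chr2:30266203-30282149), a phytanoyl-CoA dioxygenase-like enzyme, was at 53.8 and 44.98 CPM against 13.4 and 14.3 CPM. Etnppl (chr3:130617448-130637521), which breaks down phosphoethanolamine and marks mature astrocytes, was at 248 and 108 CPM against 31.7 and 57.3 CPM. The Etnppl groups did not overlap but the GR-Con libraries differed from each other by more than the GR-KO ones, and DESeq2 did not call it (adjusted p = 0.449).

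Asic2, an acid-sensing ion channel subunit, was at 709 and 569 CPM in GR-Con astrocytes and at 218 and 252 CPM in GR-KO astrocytes (-1.42, SE 0.23). Zfhx3, a homeobox transcription factor, was at 160 and 174 CPM against 65.2 and 63.3 CPM (-1.36, SE 0.19). Ccnd3, the cell cycle regulator cyclin D3, was at 155 and 186 CPM against 58.8 and 70.3 CPM (-1.37, SE 0.22). The adhesion molecule Cntn1 (249 and 159 against 57.7 and 82.8 CPM), the receptor phosphatase Ptprj (126 and 230 against 59.5 and 68.3 CPM), the sarcoglycan Sgcd, the Ral exchange factor Ralgds, the matrix protein Spon1 and the glycolytic enzyme Aldoc (212 and 369 against 124 and 123 CPM) also fell. Their log2 fold changes ran from -1.60 for Sgcd to -1.20 for Aldoc. The rule that chose the genes with the largest fold changes took only genes whose groups do not overlap, so that the separation of the groups is not a result.

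Of the genes that rose, Them4 (chr3:94310089-94332540), an acyl-CoA thioesterase, went from 37.4 and 26.1 CPM to 129 and 105 CPM (log2 fold change 1.90, SE 0.27). Adamts5 (chr16:85856173-85901828), a protease that cleaves the proteoglycans of the extracellular matrix, went from 13.7 and 13.1 CPM to 48.5 and 43.6 CPM (1.80, SE 0.23). Vcan, which encodes versican, one of those proteoglycans, went from 48.4 and 51.2 CPM to 126 and 118 CPM (1.32, SE 0.20). Slco1c1, a thyroid hormone and organic anion transporter, was the most abundant of them, at 500 and 561 CPM against 1269 and 1429 CPM (1.37, SE 0.21). The laminin subunit Lama3 (71.8 and 62.1 against 150 and 136 CPM), the zinc finger gene Zswim6 (291 and 262 against 540 and 662 CPM), the kinase Map3k19, the phosphodiesterase Pde3a and the citron kinase Cit rose as well. Cre, Hif3a, Adamts5 and Them4 were the 4 features called by DESeq2 too and whichever single library was left out. Every other astrocyte gene named here as called lost its call without the DR GR-KO male or the DR GR-KO female library: Phyhd1 and Etnppl without the male (adjusted p = 0.0667 and 0.866), Slco1c1 without the female (adjusted p = 0.105) and the others without either one.

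**Figure D2:**
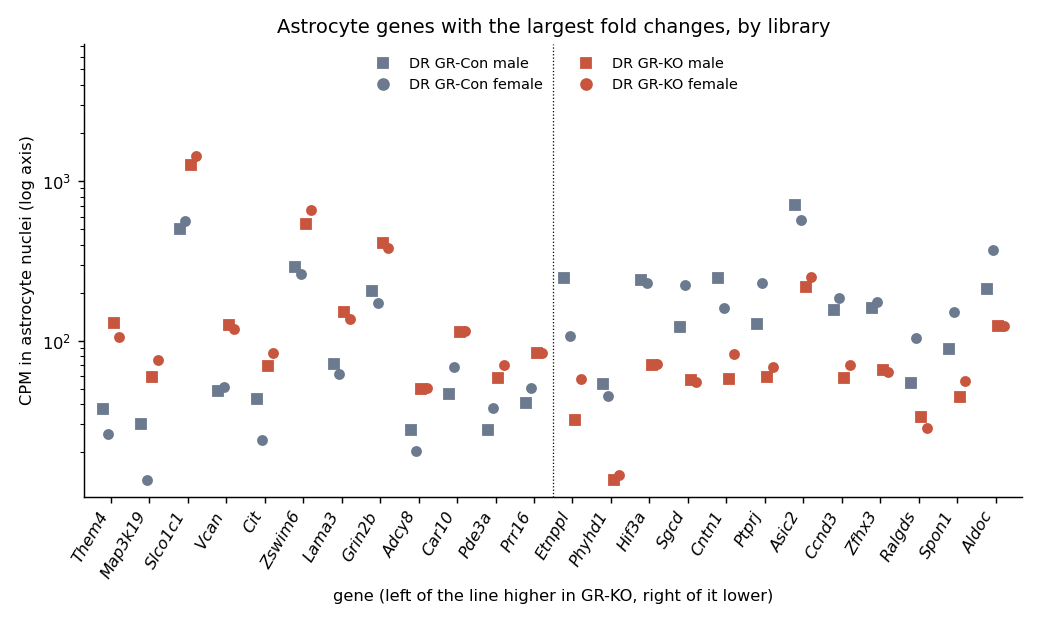
CPM in astrocyte nuclei (log axis) of the 12 higher and 12 lower genes with the largest fold changes, 1 point per library; grey, DR GR-Con; red, DR GR-KO; squares, male; circles, female. Both GR-KO libraries lie above both GR-Con libraries to the left of the dotted line and below them to its right, as the choice of genes requires, and the GR-Con libraries are the more scattered for Etnppl (248 and 108 CPM).

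Among the higher genes were some that neurons express more strongly. Grin2b, an NMDA receptor subunit, was at 204 and 171 against 411 and 378 CPM. Like Car10, Adcy8, Cit and Prr16, it had a level at least 4-fold higher in excitatory neurons than in astrocytes. This set was defined on the GR-Con libraries of DR and NR. Genes of the set made up 8 of the 33 higher and 1 of the 71 lower calls, against 8.33% of all genes tested. A low level in GR-Con astrocytes favours both entry to the set and a higher call, so this balance is not a result. The set's share of astrocyte UMIs was 3.34% and 3.87% in GR-Con and 3.49% and 3.46% in GR-KO libraries. Both GR-KO libraries were above the GR-Con male and below the GR-Con female library.

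Gene lists, chosen with earlier results of these data known, are described by their counts beside the 0.736% of all astrocyte genes and their median log2 fold change of -0.01. Leaving out a GR-Con library raised the calls over all astrocyte genes as well. List counts under such an omission therefore cannot be set against 0.736%. Of 27 classical GR targets tested in astrocytes, 3 fell, 1 rose and the median was -0.73. Without the DR GR-Con female library 13 fell and the median was -0.57, without the DR GR-Con male library 15 fell and 3 rose, and without either GR-KO library 1 fell. Hif3a fell as above. Rhou, an atypical small GTPase, was at 154 and 128 against 61.5 and 65.5 CPM, a log2 fold change of -1.12 (SE 0.22, adjusted p = 0.000113), and the transcriptional repressor Bcl6 was at 128 and 180 against 80.0 and 79.7 CPM (-0.92, SE 0.23). Pdk4, which restrains pyruvate oxidation and is usually induced by glucocorticoids, rose, from 19.8 and 14.7 CPM to 34.0 and 35.5 CPM (1.03, SE 0.26). A further 13 targets had a negative fold change at an unadjusted p under 0.05 without passing the adjusted threshold. Of all 14139 genes tested in astrocytes, 868 had an unadjusted p under 0.05 in either direction.

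Promoter sequence was read for these targets from RefSeq (GRCm38.p6) as the 250 bases before each annotated start, for 26 targets matched by symbol. The half-site AGAACA or its reverse complement TGTTCT was found in 4 of the 26 genes, against 18.2% of the 27025 genes with a window. The full palindrome, AGAACA followed after any 3 bases (NNN) by TGTTCT, so that it holds the half-site on both strands, was found in 3 of all genes (0.0111%), of which 1 was Sgk1, a GR-induced kinase. Capitals mark half-sites, and the 3 windows shown are those of the called target with the largest fall, of a called target with a half-site and of the one target with the palindrome.
Hif3a, minus strand, chr7:17062428-17062677: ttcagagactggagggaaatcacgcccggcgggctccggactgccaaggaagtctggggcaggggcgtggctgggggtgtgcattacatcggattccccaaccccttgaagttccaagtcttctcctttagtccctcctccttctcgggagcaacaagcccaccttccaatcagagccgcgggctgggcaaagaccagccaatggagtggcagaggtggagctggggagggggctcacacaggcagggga
Bcl6, minus strand, chr16:23981284-23981533, 1 of 2 windows: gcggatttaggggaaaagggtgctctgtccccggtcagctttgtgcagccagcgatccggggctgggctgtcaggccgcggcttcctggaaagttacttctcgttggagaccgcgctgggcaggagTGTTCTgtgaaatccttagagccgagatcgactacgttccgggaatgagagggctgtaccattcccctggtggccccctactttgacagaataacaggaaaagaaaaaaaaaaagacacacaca
Sgk1, plus strand, chr10:21993640-21993889, 1 of 6 windows: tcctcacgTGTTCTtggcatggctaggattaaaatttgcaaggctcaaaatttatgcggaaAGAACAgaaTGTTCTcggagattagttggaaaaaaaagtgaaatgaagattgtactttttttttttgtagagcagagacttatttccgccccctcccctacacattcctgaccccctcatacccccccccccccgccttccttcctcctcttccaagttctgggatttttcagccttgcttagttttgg
Hif3a, Rhou and Pdk4 held no half-site in these windows. Sgk1, with the palindrome, was at 7.33 and 12.2 against 7.14 and 5.84 CPM in astrocytes (log2 fold change -0.55, SE 0.37, adjusted p = 1). A match is a match of letters only, and sites outside the windows were not searched.

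Several well-known GR targets had levels that differed between the GR-Con libraries. Fkbp5 (chr17:28399094-28517527), a co-chaperone that dampens GR and is among its most responsive targets, was at 21.5 and 72.8 CPM in GR-Con and at 9.89 and 15.4 CPM in GR-KO astrocytes (log2 fold change -1.85, SE 0.56, adjusted p = 0.0999). Pooled over excitatory neurons of the same libraries it was at 22.2 and 58.8 against 60.6 and 49.6 CPM. The ratio of the astrocyte to the excitatory level was thus 0.965 and 1.24 in GR-Con and 0.163 and 0.311 in GR-KO, without overlap. Per1, a clock gene with a GR element, gave ratios of 3.20 and 3.09 against 1.57 and 1.54, and in astrocytes alone its values of 55.6 and 64.8 against 35.5 and 41.0 CPM did not pass (adjusted p = 0.23). For Hif3a the ratios were 72.2 and 94.9 against 37.2 and 32.4. The groups overlapped for the other 2 targets for which the ratio was formed: Tsc22d3, the anti-inflammatory GILZ, had 66.4 and 19.2 against 20.9 and 26.8, and Zbtb16, a zinc finger transcription factor, 1.04 and 0.285 against 0.328 and 0.385. Their astrocyte levels overlapped as well, at 75.3 and 23.6 against 29.7 and 35.5 CPM for Tsc22d3 and 179 and 64.8 against 75.1 and 112 CPM for Zbtb16. The 5 ratios were formed after values were seen and carry no test. In oligodendrocytes Fkbp5 was at 60.6 and 172 against 89.2 and 104 CPM, and in microglia at 272 and 583 CPM against 583 and 812 CPM, where the DR GR-Con female value comes from 4 nuclei. In neither of these types was the level in both GR-KO libraries below that in both GR-Con libraries.

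Outside astrocytes few of these targets were called, and differences between types in their fold changes were not tested. Klf9, a transcription factor that responds to glucocorticoid and thyroid hormone, was at 173 and 174 against 102 and 115 CPM in astrocytes (-0.65, SE 0.19, adjusted p = 0.0864). Of 161 gene-by-type pairs of the list tested in excitatory types, 1 was called, Per1 in L6b neurons, and it rose from 13.4 and 15.4 to 27.1 and 27.1 CPM (0.92, SE 0.23). That count is near the 0.628% of all excitatory pairs. In OPC Zbtb16 rose (0.87, SE 0.20). Hif3a was below 25 CPM in every library of the 12 neuron types, but the DR GR-Con female library had 72.9 CPM in oligodendrocytes against 2.31 CPM in the male GR-Con library and 4.44 and 4.78 CPM in the GR-KO libraries, and it was not called there.

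**Figure D3:**
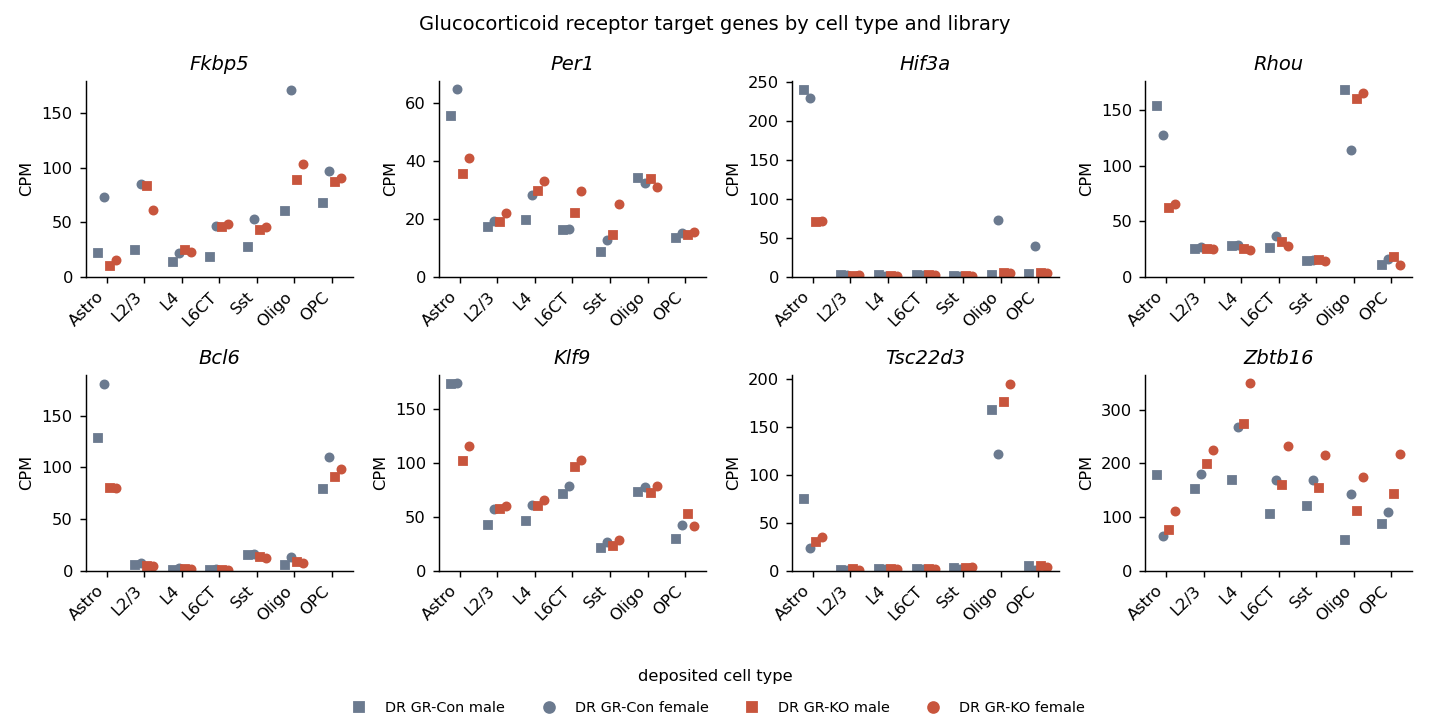
CPM of 8 glucocorticoid receptor target genes in 7 cell types, 1 point per library (grey, DR GR-Con; red, DR GR-KO; squares, male; circles, female; linear axes from 0). In astrocytes both GR-KO points lie below both GR-Con points for Fkbp5, Per1, Hif3a, Rhou, Bcl6 and Klf9 but not for Tsc22d3 and Zbtb16. These 8 genes are a choice from the list of classical targets, so the number with separated groups is not a result. The DR GR-Con female library has the highest Fkbp5 and Hif3a of oligodendrocytes (172 and 72.9 CPM).

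Maturation and matrix lists moved in parts. Of 17 maturation and GR-dependent genes named by the study, which shows several of them in these nuclei too, so that they are not independent evidence, 5 fell (Etnppl, Hif3a, Aldoc, Asic2, Ccnd3) and 2 rose (Them4, Vcan), with a median of -0.68. The number that fell was 13 without the DR GR-Con female, 8 without the DR GR-Con male, 2 without the DR GR-KO female and 1 without the DR GR-KO male library, and the median was -0.41 without the DR GR-Con male library. Of 12 extracellular matrix genes that the study took from bulk RNA-seq of astrocytes, 4 rose (Adamts16, Vcan, Adamts12, Adamts5) and 3 fell (Prom1, Scrg1, Cntn1). The study reported Cntn1, Fbln1, Prom1 and Scrg1 as lower in GR-KO and the others as higher. The list's median of 1.05 follows from that choice and is not a result for these 12 genes. Without either GR-Con library 7 of them rose and 3 fell, and without either GR-KO library 1 rose and 0 fell. Adamts16, another matrix protease, went from 11.7 and 6.48 to 31.7 and 27.0 CPM (1.69, SE 0.34), and Scrg1, a secreted protein, from 84.2 and 90.1 to 37.3 and 38.3 CPM (-1.18, SE 0.20). Of 26 other matrix and perineuronal net genes 1 was called: Sparc, a matricellular protein that counteracts synapse formation, fell from 19.7 and 28.0 to 5.86 and 8.49 CPM (-1.68, SE 0.32). It was also the single call among 18 secreted synapse-modulating factors. Without the DR GR-Con female library the other matrix list had 1 higher and 3 lower and the secreted factors 2 and 2, and without the DR GR-Con male library 6 and 4 and 3 and 3. The potassium channel Kcnt1 fell from 35.6 and 41.1 to 13.4 and 13.5 CPM (-1.48, SE 0.24).

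Further lists had few or no calls, and at the astrocyte background of 0.736% a list of their length would hold less than 1. Of all 14139 astrocyte genes, 868 had an unadjusted p under 0.05 by the edgeR likelihood ratio test. Omitting a GR-Con library raised the calls over all genes too, so that the counts under omission do not mark out these lists. Of 22 transmitter and potassium clearance genes 0 passed the edgeR likelihood ratio test (5 at an unadjusted p under 0.05, 0 by DESeq2), and Slc1a2, the main glutamate transporter, was at 9633 and 9165 against 9318 and 10072 CPM. Of 34 astrocyte identity genes 0 were called (3 at an unadjusted p under 0.05, 1 by DESeq2), and of 11 phagocytosis receptors 0 (3 and 0). Leaving out a GR-Con library gave calls in each of these 3 lists: without the DR GR-Con female 2 clearance genes were higher and 1 lower, 1 identity gene was higher and 3 lower, and 3 phagocytosis receptors were lower. Without the DR GR-Con male library these numbers were 3 and 8, 7 and 9, and 0 and 4. Without a GR-KO library 0 were called in any of the 3. Of 16 reactive astrocyte genes S100a10, a calcium-binding protein, rose from 2.20 and 1.76 to 8.79 and 5.84 CPM (1.87, SE 0.42), while Gfap, the filament that defines reactive astrocytes, was at 66.1 and 160 against 77.4 and 69.3 CPM. The list's median was -0.42, and 0.07 without the DR GR-Con female library, so that its direction rests on that library. Without the DR GR-Con male library it was -0.95, with 2 genes higher and 11 lower. Of 29 genes of cholesterol synthesis and transport 0 were called (4 at an unadjusted p under 0.05, 0 by DESeq2) with a median of 0.53, which was 0.13 without the DR GR-Con female library, with 2 genes then called higher, and 1.04 without the DR GR-Con male library, with 19 then called higher and 3 lower. Hmgcs1, an enzyme of cholesterol synthesis, was at 65.0 and 21.1 against 114 and 96.0 CPM, with the DR GR-Con female library the lowest. Of 18 clock genes 0 were called (6 and 0) with a median of -0.23, which was -0.33 without the DR GR-Con female library, with 1 gene then called higher and 6 lower, and -0.08 without the DR GR-Con male library, with 6 higher and 3 lower.

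Beyond astrocytes, excitatory neurons had 745 calls in 118695 gene-by-type pairs (0.628%), over 522 genes. Of these genes 388 were called in 1 type and 134 in at least 2 types, and 0 were called in opposite directions. The gene called in most types of the cortex was 1700016P03Rik (chr11:75172560-75177633, plus strand), a long noncoding transcript whose annotated span holds the hairpins of Mir212 and Mir132, microRNAs known to be induced by CREB and neuronal activity. Their mature 3p strands, from RefSeq (GRCm38.p6), share the seed (bases 2 to 8, in capitals) and are shown because the called transcript spans both.
mmu-miR-212-3p, plus strand, chr11:75173443-75173464: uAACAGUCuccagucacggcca
mmu-miR-132-3p, plus strand, chr11:75173723-75173744: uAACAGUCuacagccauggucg
The mature microRNAs were not measured by this assay. The host transcript rose in 9 of 13 types tested: L4, L5IT, L5PT, L6IT, L6CT and L6b among excitatory and Sst, Vip and Lamp5 among inhibitory neurons. In L6CT neurons it was at 3.64 and 6.44 CPM in GR-Con and at 21.3 and 28.8 CPM in GR-KO libraries, a log2 fold change of 2.33 (SE 0.34, adjusted p = 7.78e-08). In L4 neurons it was at 12.5 and 19.1 against 34.4 and 40.0 CPM (1.27, SE 0.23). In Sst neurons it was at 2.80 and 7.61 against 19.2 and 25.2 CPM (2.11, SE 0.34), and in Lamp5 neurons at 1.52 and 8.20 against 29.5 and 31.7 CPM (2.63, SE 0.39). The DR GR-Con male library was the lowest in these 4 types and both GR-KO libraries were above both GR-Con libraries. The call was made whichever library was left out in L6CT, Sst, Vip and Lamp5 neurons, but not in L4 neurons without the DR GR-KO female library (adjusted p = 0.068). DESeq2 called it in 3 of the 9 types (L4, L6IT and L6CT), gave no adjusted p in 2 and did not call it in the other 4, among them Vip neurons (adjusted p = 0.0507).

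Further genes rose in several excitatory types. Cbfa2t3, a transcriptional corepressor, rose in 6 types, for example in L2/3 neurons from 9.31 and 13.8 to 35.9 and 22.2 CPM (1.39, SE 0.31) and in L6CT neurons from 25.0 and 31.6 to 64.4 and 64.9 CPM (1.20, SE 0.18). Ier5l, an immediate early response family gene, rose in 6 excitatory types and in Pvalb neurons, with 5.98 and 7.80 against 15.7 and 18.1 CPM in L2/3 neurons (1.35, SE 0.21). Sik2, a salt-inducible kinase that restrains CREB coactivators, rose in 6 excitatory types and in Sst neurons, by 0.57 to 0.91 on the log2 scale. Sox8, a SoxE transcription factor, rose in 5 types, most in L4 neurons, where it went from 1.48 and 2.35 to 7.44 and 7.20 CPM (1.95, SE 0.25). Arhgap31, a Rac and Cdc42 GTPase-activating protein, rose in 5 types, with 32.3 and 32.2 against 73.1 and 81.1 CPM in L6IT neurons (1.26, SE 0.16). The nuclear receptor Ppard rose in 5 types, by 0.61 to 0.78 on the log2 scale. DESeq2 made all of these calls for Cbfa2t3 and Sik2, and 4 of 7 for Ier5l, 4 of 5 for Sox8, 3 of 5 for Arhgap31 and 3 of 5 for Ppard.

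Mbp rose in 7 of 8 excitatory types, by 0.61 to 1.11 on the log2 scale. The gene encodes myelin basic protein in oligodendrocytes, and its locus also makes Golli transcripts in neurons. In L5PT neurons it was at 70.6 and 78.3 against 147 and 133 CPM, and in L6CT neurons at 35.1 and 35.8 against 70.9 and 71.1 CPM. The summed level of 3 oligodendrocyte markers (Mog, Mag, Mobp) in the same L6CT nuclei was 4.2 and 4.9 CPM in GR-Con and 5.28 and 5.50 CPM in GR-KO, and in L5PT nuclei 4.28 and 4.91 against 7.66 and 4.29 CPM. Their part in the Mbp difference was not tested.

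Fewer genes fell across types. Dipk2a, a secreted kinase-like protein, fell in 6 excitatory types, for example from 25.0 and 20.1 to 8.50 and 7.76 CPM in L2/3 neurons (-1.41, SE 0.20) and from 47.5 and 50.2 to 25.9 and 25.8 CPM in L5PT neurons (-0.89, SE 0.15). Etv1, an ETS transcription factor of deep-layer neurons, fell in 5 excitatory types and in Pvalb neurons, with 345 and 294 against 177 and 181 CPM in L5IT neurons (-0.83, SE 0.16). The Hippo pathway coactivator Yap1 fell in 4 types and the uncharacterised gene B230217C12Rik in 5, of which DESeq2 called 2 and 3. Jcad, Ppfibp1 and Mat2b fell in 3 types each. Of the calls in excitatory types, 28 were also made by DESeq2 and whichever library was left out, among them Siah3 in L5PT neurons (19.2 and 23.6 against 55.6 and 50.6 CPM), Parm1 in L4 neurons (19.6 and 22.4 against 10.1 and 9.58 CPM), and Nr4a3, Pcsk1 and Rspo2 in L6b neurons, the last of which fell from 86.8 and 70.2 to 34.7 and 33.9 CPM.

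**Figure D4:**
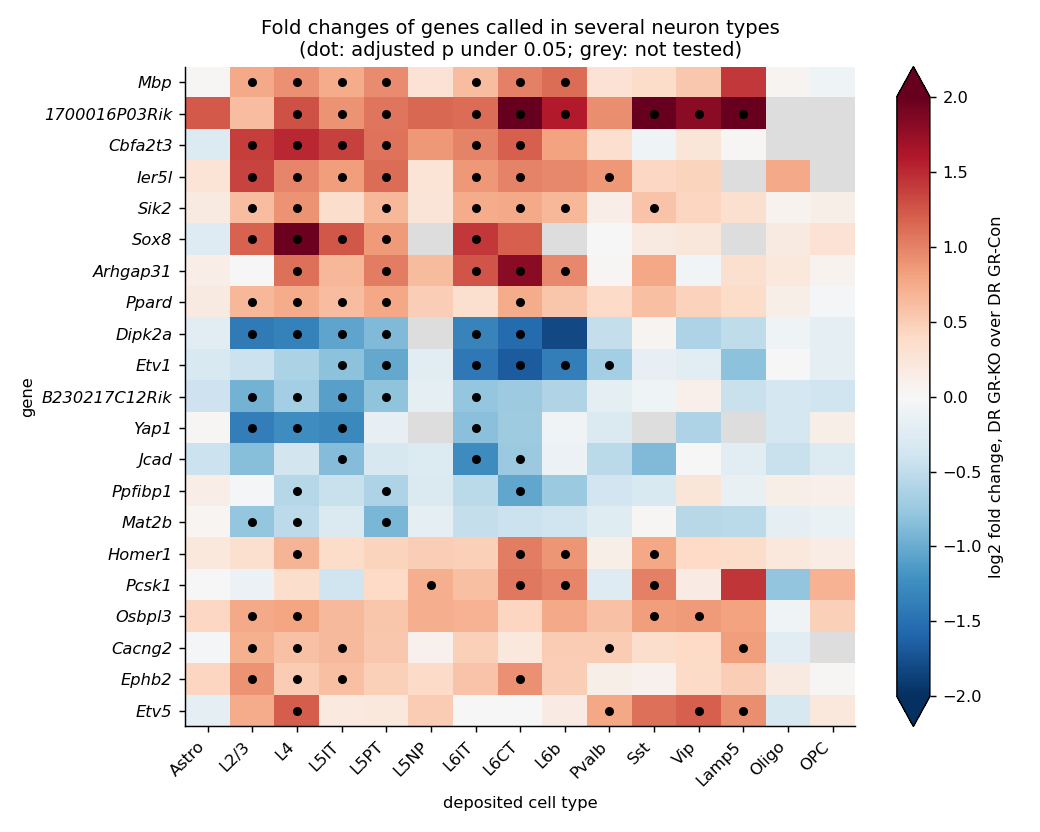
Log2 fold change of 21 genes (rows) in 15 cell types (columns), red for higher and blue for lower in DR GR-KO; dots mark an adjusted p under 0.05 (edgeR likelihood ratio test) and grey cells were not tested. The dots of a gene have 1 colour across types, and 1700016P03Rik has dots in 9 of the 13 types in which it was tested.

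Genes induced by neuronal activity were tested as 2 lists. Of 113 gene-by-type pairs of immediate early transcription factors tested in excitatory types, 8 rose and 0 fell, and of 258 pairs of activity-regulated effector genes 13 rose and 1 fell, beside the 0.628% of all pairs. A list of heat shock and dissociation stress genes, which shares Fos and Junb with the first, had 3 of 111 pairs higher and 0 lower, each of them Fos or Junb, and its median was 0.05 to 0.22 across the 8 types. The part of tissue handling in these changes was not tested. Type by type the changes were uneven. L6CT neurons had 4 of 16 immediate early genes called (Egr4, Fosb, Junb, Fos), with a median of 0.89 for the list. Junb, an AP-1 subunit, went from 10.5 and 9.16 to 16.5 and 19.7 CPM (0.89, SE 0.22), and Fos from 0.529 and 0.963 to 2.15 and 2.81 CPM (1.74, SE 0.40). The Fos level rests on few counts, with 17 and 35 UMIs against 44 and 70. DESeq2 called Junb (adjusted p = 0.0198) and gave no adjusted p for the other 3. Each of these 4 calls was lost without the DR GR-KO male or the DR GR-KO female library. Egr1 and Nr4a1, which belong to the same list, were at 10.6 and 14.1 against 12.8 and 15.8 CPM and at 59.6 and 40.0 against 48.7 and 60.4 CPM, with overlapping groups. In L2/3 neurons 0 of 18 immediate early genes passed the edgeR likelihood ratio test (2 at an unadjusted p under 0.05, 2 by DESeq2), and Fos was at 0.859 and 1.62 against 1.39 and 1.56 CPM there. In L6b neurons Nr4a3, an orphan nuclear receptor, went from 16.1 and 19.9 to 42.0 and 49.7 CPM (1.36, SE 0.22), and this call was kept whichever library was left out.

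Of the effector genes, Homer1, a postsynaptic scaffold with an activity-induced short form, rose in L4, L6CT, L6b and Sst neurons. It was at 288 and 307 against 516 and 687 CPM in L6CT neurons (1.02, SE 0.23) and at 374 and 400 against 538 and 672 CPM in L4 neurons (0.68, SE 0.18). Without the DR GR-KO female library, the highest in both types, neither passed (adjusted p = 0.719 and 0.964). Pcsk1, a proprotein convertase that processes neuropeptides, rose in L5NP, L6CT, L6b and Sst neurons, with 57.7 and 52.3 against 109 and 107 CPM in L6b neurons (0.98, SE 0.17). Osbpl3, an oxysterol-binding protein, rose in L2/3, L4, Sst and Vip neurons, but its 2 GR-KO libraries differed, as in L4 neurons with 171 and 212 against 388 and 259 CPM. Nptx1, a neuronal pentraxin that gathers AMPA receptors, rose in L5IT and L6CT neurons (44.8 and 56.8 against 80.3 and 80.3 CPM in L6CT). The neuropeptide gene Cort rose in Sst neurons, from 2.43 and 3.51 to 11.2 and 8.33 CPM (1.72, SE 0.31). Nrn1, which promotes neurite growth, fell in L6IT neurons (86.1 and 89.9 against 54.0 and 62.4 CPM).

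Clock, thyroid and receptor genes had further calls. Of 151 clock gene pairs in excitatory types 6 rose and 0 fell, beside the 0.628% of all pairs, with medians of 0.16 to 0.27 across the 8 types. The difference from the astrocyte clock median given above was not tested. Medians above 0 in all 8 types were also found for classical GR targets (0.04 to 0.37) and thyroid hormone genes (0.05 to 0.28). The same held for genes of glycolysis, glycogen and lactate (0.07 to 0.22), though not for every list. Dbp, an output factor of the clock, was at 6.87 and 7.34 against 13.6 and 11.3 CPM in L2/3 neurons (0.86, SE 0.18), and Nr1d1, a repressor of the clock loop, at 4.25 and 4.38 against 7.63 and 7.45 CPM (0.86, SE 0.18). Hr, a corepressor induced by thyroid hormone, rose in L2/3, L5PT and L6CT neurons at levels below 8 CPM. Cacng2, the AMPA receptor auxiliary subunit stargazin, rose in L2/3, L4, L5IT, Pvalb and Lamp5 neurons, with 88.7 and 101 against 153 and 145 CPM in L2/3 neurons (0.71, SE 0.15). Ephb2, a receptor tyrosine kinase for ephrin-B ligands, rose in L2/3, L4, L5IT and L6CT neurons, with 151 and 136 against 286 and 255 CPM in L6CT neurons (0.92, SE 0.18). Of 460 pairs of axon growth and guidance genes in excitatory types 7 rose and 3 fell, beside the same 0.628%, with medians of -0.07 to 0.08. Syt10, a synaptotagmin of vesicle release, fell in L2/3 neurons (43.1 and 32.9 against 12.5 and 15.5 CPM).

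In inhibitory neurons 179 of 51955 pairs were called (0.345%). Etv5, an ETS factor downstream of growth factor signalling, rose in Pvalb, Vip and Lamp5 neurons as well as in L4 neurons. In Vip neurons it was at 24.9 and 31.1 against 59.1 and 67.1 CPM (1.20, SE 0.17, adjusted p = 8.65e-09), and in Pvalb neurons at 32.7 and 34.0 against 59.6 and 53.3 CPM (0.77, SE 0.13). Unc13c, a vesicle priming factor, rose in Vip neurons from 12.4 and 9.42 to 27.9 and 39.6 CPM (1.67, SE 0.24), as did the adaptor Bcar3 (0.94, SE 0.16). In Pvalb neurons the calcium buffer Calb1 fell from 43.6 and 50.6 to 26.2 and 18.2 CPM (-1.08, SE 0.17), the secreted protein gene Tafa1 from 44.8 and 70.9 to 22.3 and 19.5 CPM (-1.45, SE 0.21) and the cation channel Trpm3 from 33.8 and 38.1 to 19.6 and 16.7 CPM (-0.97, SE 0.15). Adarb2, which marks Vip and Lamp5 neurons, was called lower in Pvalb neurons (210 and 49.6 against 34.1 and 8.86 CPM), where the DR GR-Con male library carried most of the difference, and higher in Sst neurons (56.9 and 32.9 against 96.1 and 70.7 CPM). DESeq2 called neither of these (adjusted p = 1 in both), and the part of RNA from Vip or Lamp5 neurons in them was not tested.

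In Sst neurons Ndst4, a heparan sulfate sulfotransferase, fell from 45.9 and 49.1 to 19.4 and 25.0 CPM (-1.06, SE 0.16), and the phosphodiesterase Pde7b rose from 45.7 and 36.6 to 63.7 and 81.5 CPM (0.85, SE 0.18). Sorcs3, a sorting receptor, and the noncoding Gm32647 fell, without passing once the DR GR-Con female library was left out (adjusted p = 0.0890 and 0.0835). In Lamp5 neurons the vesicle GTPase Rab3b and the endothelin-converting enzyme Ece1 rose (1.06, SE 0.22 and 0.95, SE 0.18), and Il1rapl2, Zfpm2 and Rgmb fell. DESeq2 called 0 genes in Lamp5 neurons, where 178 had an unadjusted p under 0.05 by that test, and the quasi-likelihood F-test 0, with 772.

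In OPC, the cells that give rise to oligodendrocytes, several of the called genes were at their lowest or their highest in the DR GR-Con female library. Top2a, a topoisomerase of dividing cells, was at 20.9 and 0.889 CPM in GR-Con and at 60.9 and 50.7 CPM in GR-KO libraries, a log2 fold change of 2.34 (SE 0.59, adjusted p = 0.0237). Mki67, the proliferation marker Ki-67, was at 8.47 and 0.889 against 32.2 and 27.0 CPM (2.64, SE 0.41), and the kinetochore gene Cenpf and the spindle motor Kif11 behaved alike (3.02, SE 0.42 and 2.40, SE 0.39). These 4 genes were called whichever library was left out but not by DESeq2. Mki67 UMIs were found in 13 of 387 and 2 of 302 OPC nuclei of GR-Con and in 20 of 383 and 20 of 384 of GR-KO. After each nucleus was thinned to 2000 UMIs (0 to 5 shallower OPC nuclei left out per library), the shares were 1.83% and 0.331% against 2.63% and 2.62%, with 95% Wilson intervals of 0.890 to 3.73 and 0.0585 to 1.85 against 1.44 to 4.78 and 1.43 to 4.75. For Mki67 all 4 intervals overlapped. For Top2a the thinned shares were 2.36% (1.24 to 4.42) and 0.662% (0.182 to 2.38) against 4.47% (2.81 to 7.05) and 3.93% (2.39 to 6.38), so that the DR GR-Con female interval lay below both GR-KO intervals and the DR GR-Con male interval overlapped them. In oligodendrocytes, which do not divide, the thinned shares with Mki67 were 0% to 0.454%.

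Rnf213, by contrast, was at 27.6 and 217 against 19.8 and 19.3 CPM in OPC and Ddx58 at 25.0 and 102 against 11.9 and 21.2 CPM. The DR GR-Con female library alone was high, and without it neither passed (adjusted p = 0.947 and 0.913), nor did Ifit3, an interferon-induced gene (adjusted p = 0.974). Zbtb16 rose in OPC from 86.5 and 110 to 143 and 218 CPM, also without that library (adjusted p = 1.71e-07), but not without the DR GR-KO female library (adjusted p = 1). Without the DR GR-Con female library 14 of the 43 calls of OPC and oligodendrocytes were made.

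**Figure D5:**
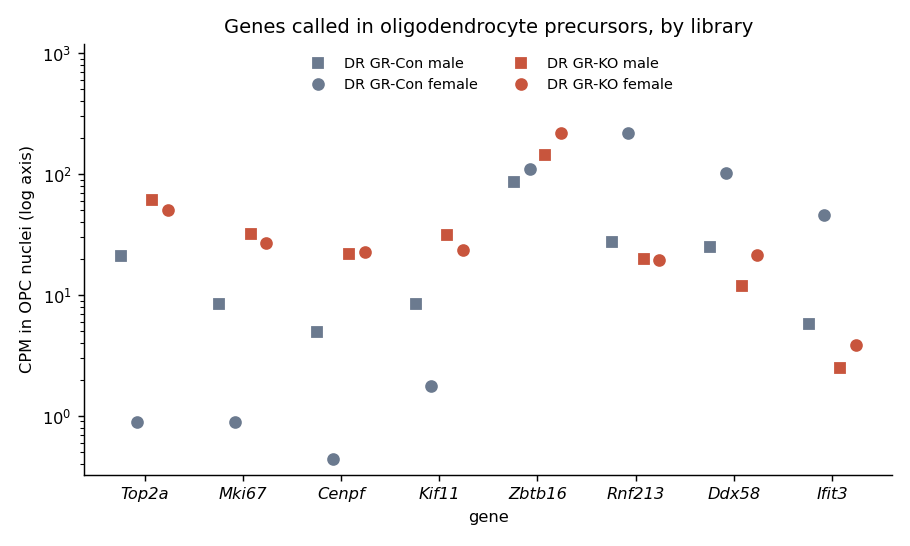
CPM in OPC nuclei (log axis) of 8 called genes, 1 point per library (grey, DR GR-Con; red, DR GR-KO; squares, male; circles, female). The DR GR-Con female library (grey circles) is the lowest for Top2a, Mki67, Cenpf and Kif11 and the highest for Rnf213, Ddx58 and Ifit3 (217 CPM for Rnf213).

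The genotype effect in the dark was set beside that in normal light, in libraries that share no animal with it. In NR astrocytes 489 genes were called lower and 541 higher, of 14493 tested. Of the 71 genes lower in DR astrocytes 62 (87.3%) were also called lower in NR astrocytes, which is 12.7% of the 489 called there. Of the 33 higher genes 24 (72.7%) were called higher, 4.44% of 541. Median UMIs per astrocyte nucleus were 6267 and 5586.5 in NR GR-Con against 8662 and 12123.5 in NR GR-KO libraries. In DR they were 5307 and 7199 against 4889 and 5227. Depth thus ran in opposite directions with genotype in DR and NR, and its part in these overlaps was not tested. The interaction of genotype with rearing, tested over all 8 libraries, was called for 57 genes in astrocytes (0.386%), with the DR minus NR difference in log2 fold change above 0 for 1 gene and below 0 for 56. All 56 had a positive fold change in NR, and in 54 of them the fold change in DR was negative. Of the 56, 52 were in the set at least 4-fold higher in excitatory neurons. The set's share of astrocyte UMIs was 2.99% and 2.86% in NR GR-Con against 4.25% and 4.44% in NR GR-KO libraries, without overlap. Because the set was defined on GR-Con levels, genes low in GR-Con astrocytes are favoured, and neither the number nor the share is a test. Hif3a had a log2 fold change of -1.70 in DR and -2.14 in NR, Vcan 1.32 and 1.55, and Sgcd -1.60 and -0.84, and in these 3 the interaction did not pass. Zswim6, at 1.15 in DR and 0.17 in NR, came nearest among the genes described here (adjusted p of the interaction 0.0725).

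The shares of nuclei by type were not shown to differ between genotypes. Astrocytes made up 11.8% and 7.19% of nuclei in GR-Con and 9.64% and 9.81% in GR-KO libraries. Tested on numbers of nuclei with the edgeR quasi-likelihood F-test over 15 types, 0 types passed at an adjusted p under 0.05, and 1 type, L6b neurons, had an unadjusted p under 0.05, with a log2 difference of -0.56 and an adjusted p of 0.32.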

How the data were processed

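V1 nuclei from P21 mice were profiled by 10x 3' single-nucleus RNA-seq. The authors aligned reads with Cell Ranger 8.0.1 to mm10 with added vector sequences and deposited UMI counts per gene and nucleus, after removing nuclei with very low or high counts, predicted doublets and clusters without markers in Seurat 5.3.0. The deposited nucleus table gave library, genotype, rearing and cell type, and the percent of mitochondrial counts, which was read only as a quality measure. Cell types were used as deposited. Library names gave group and sex.

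Counts were summed per library and cell type. Genes passing edgeR's filterByExpr were tested with the edgeR 4.0.16 likelihood ratio test (R 4.3.3, TMM factors), the test the study used, with Benjamini-Hochberg adjustment within each type, and SE was taken as the absolute log2 fold change over the square root of the test statistic. The 4 DR libraries were fitted alone. Alternatives were the quasi-likelihood F-test, DESeq2 1.42.0, RLE factors, no filter, sex as a term, all 8 libraries, thinned counts and leaving out each library. The scripts were tested on simulated data. Intervals for shares are Wilson intervals at 95% and a count of 0 allows 3 counts. In the DR libraries 267 barcodes occurred in more than 1 library.

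Named genes were the 12 per direction with the largest fold change in astrocytes (average log2 CPM of at least 5, groups not overlapping), the 8 per direction called in most excitatory types, 3 per direction in each other type, the 6 called in most types of any class, those called under DESeq2 and every omission of a library, and up to 4 examples of each of 36 lists (892 genes). The comparison, members and lists were chosen with earlier results of these data known. Genes named outside this rule were chosen after their values were seen, and some genes the rule names are not reported here.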

Additional observations from a re-analysis of the deposited data

Results flagged for a closer look

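Genotype effects that differed between DR and NR were tested with an edgeR interaction term over all 8 libraries. In astrocytes 57 genes passed, and the named ones are given as the DR minus the NR log2 fold change. Nkain2 differed by -1.85, the potassium channel Kcnh7 by -1.66, the ephrin receptor Epha6 by -1.94, the adhesion molecule Cntn5 by -1.46 and Smim3 by 0.98. Nkain2 was lower in DR (-0.85) and higher in NR (1.01), and Smim3 was at -0.24 in DR and -1.21 in NR. Of the 56 genes with a lower value in DR, 56 were called in NR astrocytes against 1 in DR astrocytes. Astrocyte depth differed with genotype in opposite directions in DR and NR, as given above. Of the 56, 52 are genes at least 4-fold higher in excitatory neurons than in astrocytes. These were defined on the GR-Con libraries, which favours genes low there. The share of such genes in astrocyte UMIs was higher in both NR GR-KO libraries (4.25% and 4.44%) than in both NR GR-Con libraries (2.99% and 2.86%), and in DR the groups overlapped (3.34% and 3.87% in GR-Con, 3.49% and 3.46% in GR-KO). Its part in these differences was not tested.

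In neurons only genes named by the rule and called in DR are listed, a choice that favours a gap from NR. The number of all pairs that passed is not given here. In excitatory neurons the difference passed for Ier5l in L2/3 neurons (1.15), Ppfibp1 in L4 neurons (-0.78) and L5PT neurons (-0.95), and Ppard in L5PT neurons (1.21). The NR GR-KO female library held 59 L5PT nuclei, against 384 to 504 in the other libraries. In Pvalb neurons the difference passed for the corepressor Nacc2 (0.96), Tafa1 (-3.30) and Calb1 (-1.77), and in Vip neurons for Unc13c (2.82) and Osbpl3 (1.28). Of these, Ier5l in L2/3 neurons, Tafa1, Calb1 and Unc13c also kept their DR call under DESeq2 and whichever DR library was left out. For Tafa1, Calb1 and Unc13c the difference had the sign of the DR fold change given above and was larger. Their fold changes in NR were therefore of the opposite sign.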

How the results depend on the processing

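By replicate number no paired analysis was possible because the library names carry no replicate numbers. Sex as a term stood in, which matches the groups by sex, with 1 male and 1 female library in each group. Astrocyte calls (104) went to 0 with the quasi-likelihood F-test, 65 with DESeq2, 224 with sex as a term and 198 with all 8 libraries in the fit. Excitatory calls (745) went to 0, 1714 with sex and 454 with all 8 libraries. Inhibitory calls (179) went to 8 with the quasi-likelihood F-test, 49 with DESeq2, 374 with sex and 80 with all 8 libraries. OPC and oligodendrocyte calls (43) went to 1 with the quasi-likelihood F-test, 1 with DESeq2, 21 with no filter on low counts, 103 with sex and 23 with all 8 libraries. Interaction calls (57) went to 1 with the quasi-likelihood F-test and 94 with sex. Leaving out 1 library gave 6 to 2505 calls in astrocytes, 159 to 3115 in excitatory, 57 to 584 in inhibitory and 18 to 1004 in OPC and oligodendrocytes, 3 to 991 for the interaction and 0 to 0 for shares of nuclei. The low ends came without a GR-KO library and the high ends without a GR-Con library, and the cause was not tested. Of the named values, none changed direction, 158 lost their call with the quasi-likelihood F-test, 39 with DESeq2, 74 with all 8 libraries in the fit, 104 without the DR GR-KO female and 97 without the DR GR-KO male library. With 2 libraries a group, small changes cannot be told from the spread between animals.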
